A study of Homo sapiens with 12 samples.

Results

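The cytosolic ribosomal protein genes were followed in RNA sequencing of NUF2 knockdown. The genes were chosen by symbol alone: RPL or RPS followed by digits and at most an A or an X, together with RPLP0, RPLP1, RPLP2 and RPSA. This gave 77 of the 58302 genes in the files, 46 of the large and 31 of the small subunit. The RNA came from 769-P and ACHN cells, human kidney carcinoma lines that the labels call clear cell renal cell carcinoma cells. Each line was transfected for 48 h with siRNA against NUF2 (si-NUF2) or with control siRNA (si-NC), and each of the 4 groups had 3 libraries. NUF2 is a part of the kinetochore complex that ties chromosomes to the spindle. In the study, si-NUF2 named a mix of siRNA2 and siRNA3, chosen after a pilot test of several siRNAs. Whether the 3 repeats of a group were separate transfections is not given in the sources used here, so p-values measure the spread between these libraries only. Each line is a single cell line, so line and culture cannot be told apart.

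Ribosomal proteins assemble with ribosomal RNA into the small subunit, which reads the mRNA, and the large subunit, which joins the amino acids. Their mRNAs are among the most abundant of a growing cell, and most begin with a C and a run of pyrimidines, the terminal oligopyrimidine (TOP) motif, through which growth signalling by mTOR and LARP1 controls their translation. Several also act outside the ribosome: RPL5 and RPL11 bind and inhibit MDM2 when ribosome assembly is disturbed.

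The start sites below belong to the ribosomal protein genes whose knockdown results are described in detail, and they are shown since TOP mRNAs are defined by these letters. Each window holds 10 bases before and 20 bases from the annotated start, 5′ to 3′ on the forward strand, from RefSeq on GRCh38.p14. Capitals mark a C followed by at least 4 further pyrimidines that begins within 5 bases of the start, and where a gene has several annotated starts, a start with the tract exactly there is shown, or else the longest tract. RPL11 is at chr1:23691796-23691825, RPSA at chr3:39406710-39406739, RPL13 at chr16:89560672-89560701, RPL19 at chr17:39200313-39200342, RPL13A at chr19:49487598-49487627, RPS12 at chr6:132814559-132814588 and RPS26 at chr12:56041908-56041937.
RPL11: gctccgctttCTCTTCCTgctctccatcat
RPSA: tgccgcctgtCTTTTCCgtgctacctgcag
RPL13: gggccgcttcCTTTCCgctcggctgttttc
RPL19: agctctttCCTTTCgctgctgcggccgcag
RPL13A: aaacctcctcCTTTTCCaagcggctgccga
RPS12: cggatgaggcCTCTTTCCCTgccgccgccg
RPS26: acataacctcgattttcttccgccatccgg

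RPS26, which differed most between si-NUF2 and si-NC in ACHN cells, holds no such tract within 5 bases of its annotated start. The letters cttcc, which would count as one, begin just beyond that limit. Of the 77 genes, 62 had an entry among the RefSeq start sites. A tract beginning exactly at an annotated start was present in 46 of these 62 (74.2%), against 5.1% of all 27305 symbols with an entry, and one beginning within 5 bases of the start in 53 (85.5%) against 25.2%. In the 300 bases around the starts, the letters CCGGAAG, searched on both strands, were present in 35.5% of the ribosomal protein genes and 12.2% of all symbols. The letters AAGATGGC were present in 9.7% against 3.5%, and TATAAA in 8.1% against 14%. The median log2 fold change was 0.028 (769-P) and 0.064 (ACHN) for the 53 genes with a tract near the start, and 0.014 and 0.067 for the other 9. Genes without an entry included RPL5, RPL7, RPL8, RPL23, RPL23A, RPL30, RPL37, RPS2, RPS15A and RPS20.

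Libraries held 29244017 to 38864844 reads, as recovered from the FPKM. The targeted gene was lower in both lines: NUF2 was at a mean of 3.68 FPKM under si-NUF2 and 18.3 FPKM under si-NC in 769-P cells, and at 3.85 and 13.8 FPKM in ACHN cells. Of the renal markers PAX8, PAX2, CDH6, CA9, VIM, KRT8, KRT18 and LHX1, CA9 was near 0 in both lines and CDH6 near 0 in ACHN cells. Fewer cells and less RNA per cell cannot be told apart in such bulk samples.

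The 77 genes together took 6.36% ± 0.15 (SD, n = 3) of the summed FPKM in 769-P si-NUF2 libraries and 6.4% ± 0.246 under si-NC. In ACHN cells the shares were 6.84% ± 0.145 and 6.68% ± 0.258. FPKM are per length of all annotated exons of a gene, not of the mRNA made, so ranks between genes are approximate. Over the 12 libraries, 60 of the 77 genes had a mean of at least 100 FPKM, 14 were between 10 and 100 FPKM, and 3 were below 10 FPKM. The highest means were those of RPS2 (986 FPKM), a small subunit protein near the mRNA entry, RPL41 (875 FPKM), the smallest ribosomal protein, RPL8 (815 FPKM) and RPS12 (807 FPKM).

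**Figure D1:**
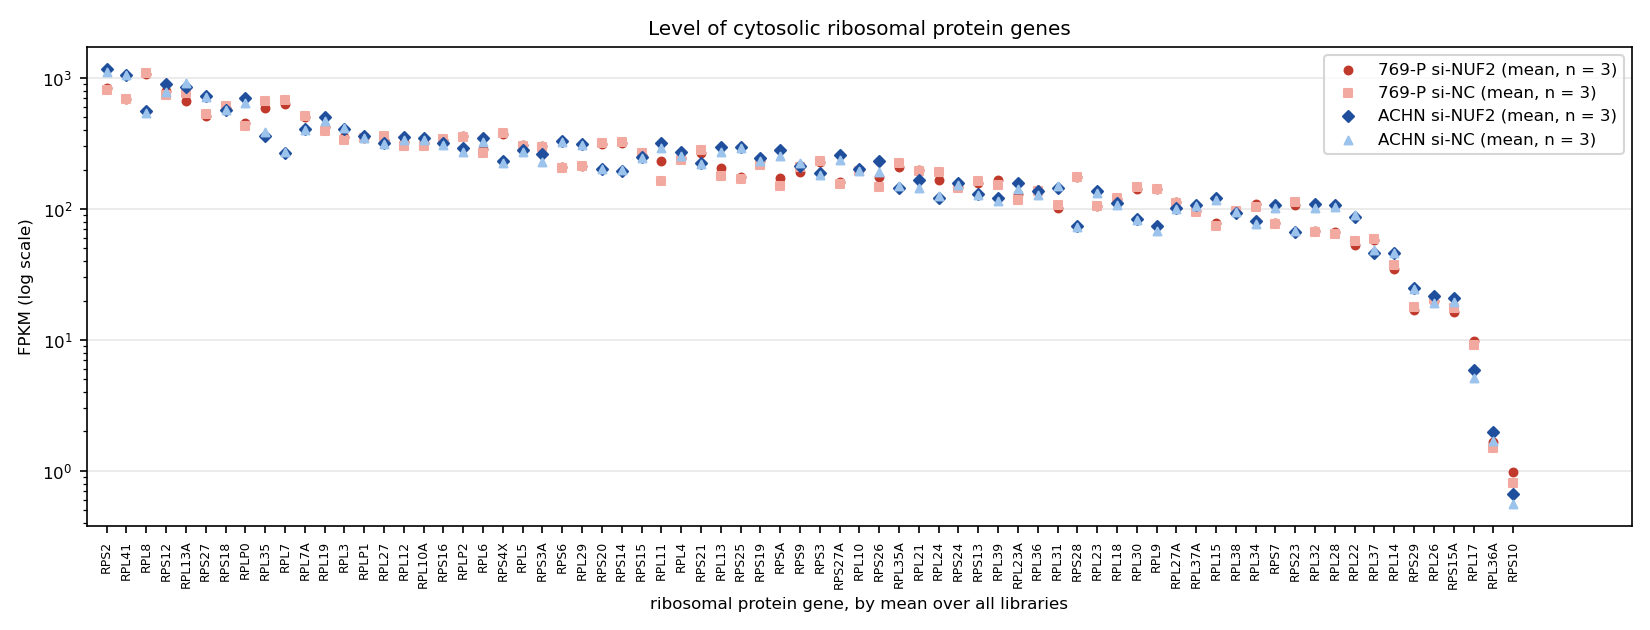
Mean FPKM (log scale) of 72 of the 77 ribosomal protein genes in the 4 groups, with genes ordered by their mean over all libraries. Most genes lie between 100 and 1000 FPKM in every group, and the 3 rightmost genes, RPL17, RPL36A and RPS10, lie below 10 FPKM.

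The lowest means were those of RPS10 (0.755 FPKM), RPL36A (1.71 FPKM), RPL17 (7.48 FPKM) and RPS15A (18.6 FPKM). RPS10 rested on 37 to 83 reads per library, against 54349 to 106847 for RPS2. In the GENCODE annotation, 39.4% of the exon bases of RPS10 are shared on the same strand with other genes, most of them with the read-through gene RPS10-NUDT3, and 32.7% of those of RPL17 are shared, most with RPL17-C18orf32. RPL36A shares 8.4% with RPL36A-HNRNPH2. Annotated exon lengths ran from 767 to 9845 bases, and RPS29, at a mean of 21.0 FPKM, had the longest. How reads that match several genes or pseudogenes were counted is not given in the sources used here, so the levels of these genes are uncertain, and the part of shared bases and of exon length in the low values was not tested.

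In 769-P cells, NUF2 knockdown left the ribosomal protein genes close to their si-NC level, with 1 exception. Their median log2 fold change was 0.0231, against -0.009 over all 14155 genes tested, and the 10th and 90th percentiles were -0.0916 and 0.1339, against -0.4026 and 0.4104 over all genes. The median SE of a log2 fold change was 0.0683 for the ribosomal protein genes and 0.121 for all genes, so the narrow range was measured with more precision than that of most genes. With limma at an adjusted p under 0.05, 1 of the 77 rose, RPL11, and none fell. Of all genes tested, 5.26% rose and 4.71% fell. At an unadjusted p under 0.05 in limma, 5 of the 77 passed, against 3883 of all 14155 genes tested. The 5 were RPL11, RPS26, RPL13, RPSA and RPL13A.

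RPL11 (ENSG00000142676, chr1:23691742-23696835, forward strand), the large subunit protein that binds MDM2, reached 249, 226 and 217 FPKM with si-NUF2 in 769-P cells, and 180, 157 and 150.2 FPKM with si-NC. Every si-NUF2 library lay above every si-NC library. The log2 fold change was 0.52 (SE 0.0943, adjusted p = 0.0218), a 1.43-fold rise. RPL11 kept its direction but not its call in the fits that left out any one of 5 of the 6 libraries, where the adjusted p was 0.0548 to 0.0776. Only the fit without si-NC replicate 1 kept the call, with an adjusted p of 0.0191. RPL5, its partner on MDM2, was at 322, 291 and 315 FPKM under si-NUF2 and at 297, 291 and 314 FPKM under si-NC, and its groups overlapped.

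The replicate numbers of the labels tied the libraries of the 2 groups together, and a fit with the number as a block called more genes. With the block, 7 of the 77 rose and 1 fell in 769-P cells, at a background of 13.6% of all genes higher and 13.9% lower. The 7 included RPL11, RPS26, RPSA, RPL13, RPL23A and RPL19, and the gene that fell was RPL13A. The share called, 8 of 77, was below that of all genes. With both libraries of replicate 1 left out, the blocked fit called 2 of the 77, RPL11 and RPS26. Without replicate 2 it called only RPL11, and without replicate 3 there were 9. These fits hold fewer libraries and so have less power, and the share of all genes they called is not given here. RPSA, RPL13 and RPL13A kept their direction but lost their call without replicate 1 and without replicate 2. Whether this reflects those replicates or the smaller fits was not tested.

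RPS26 (ENSG00000197728, chr12:56041351-56044697, forward strand), a small subunit protein at the mRNA exit, was at 186.5, 170.4 and 174 FPKM under si-NUF2 and at 155, 143 and 144 FPKM under si-NC in 769-P cells. The groups did not overlap, and the log2 fold change was 0.28 (SE 0.034, adjusted p = 0.00842 with the block and 0.0511 without it). RPSA (ENSG00000168028, chr3:39406689-39412542, forward strand), a small subunit protein also known as the laminin receptor, was at 184, 159.7 and 174 FPKM against 163, 146 and 142 FPKM. Its lowest si-NUF2 library lay below the highest si-NC library, although each si-NUF2 library was above the si-NC library of its number. The log2 fold change of RPSA was 0.21 (SE 0.0468, adjusted p = 0.0311 with the block and 0.168 without it).

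RPL13 (ENSG00000167526, chr16:89560657-89566828, forward strand), of the large subunit, was at 207.5, 201 and 204 FPKM against 185, 181 and 171 FPKM, with no overlap. Its log2 fold change was 0.20 (SE 0.0403, adjusted p = 0.0235 with the block and 0.0784 without it). RPL23A and RPL19, which also rose with the block, had log2 fold changes of 0.15 and 0.12 and adjusted p-values of 0.0482 and 0.0498, close to the threshold. RPL13A (ENSG00000142541, chr19:49487554-49492308, forward strand), a large subunit protein that is also part of the GAIT complex, was at 631, 691 and 665 FPKM under si-NUF2 and at 779, 771 and 760.4 FPKM under si-NC. All its si-NUF2 libraries lay below its si-NC libraries, and it fell by 0.21 on the log2 scale (SE 0.0418, adjusted p = 0.0241 with the block and 0.0616 without it). Of its exon bases, 17.3% are shared with other genes on its strand, the largest share with the small nucleolar RNA gene SNORD35A.

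In ACHN cells no ribosomal protein gene passed the threshold without the block, and 0% of the 15116 genes tested did. NUF2, the targeted gene, did not pass in this fit either, so a lack of calls there does not show a lack of change. It passed in 5 of 22 other settings tried. With DESeq2 the study did report differential genes in ACHN cells. At an unadjusted p under 0.05, limma found 1 of the 77, RPS26, against 1238 of all 15116 genes tested. At the adjusted threshold, limma-voom on the recovered reads also called 0 of the 77. The median log2 fold change of the 77 was 0.0636, against 0.0061 over all genes, with 63 of the 77 above 0. Of the 77, 43 (55.8%) were higher under si-NUF2 in every pair of same-numbered libraries, against 26.9% of all genes, and 5 (6.5%) were lower in every pair, against 28.1%. Leaving out 1 library of a pair moved the median most for replicate 1, to -0.0029 without si-NUF2 replicate 1 and to 0.1204 without si-NC replicate 1. With both libraries of a number left out, the median within pairs was 0.0611 without replicate 1, 0.0761 without replicate 2 and 0.0652 without replicate 3.

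RPS26 was at 248, 232 and 222.5 FPKM under si-NUF2 and at 187, 192 and 201 FPKM under si-NC in ACHN cells. The groups did not overlap, and the log2 fold change was 0.30 (SE 0.0618, adjusted p = 0.044 with the block and 0.446 without it). RPS12, a small subunit protein, was at 958, 868 and 895 FPKM against 808, 737 and 814 FPKM, again with no overlap, and its log2 fold change was 0.22 (SE 0.0449, adjusted p = 0.0416 with the block and 0.634 without it). These were the 2 of the 77 that rose with the block, and none fell, at a background of 7.14% of all genes higher and 5.05% lower. With both libraries of any one replicate number left out, the blocked fit called 0 of the 77 in ACHN cells. Those fits hold fewer libraries, and the share of all genes they called is not given here. The other genes with the highest values were RPS10 (0.25), RPL21 (0.23) and RPL36A (0.23), and among the lowest were RPL13A (-0.08), RPL35 (-0.06), RPL37 (-0.06) and RPS9 (-0.05), none of which passed the threshold in either fit.

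Groups that did not overlap at all were counted in each line, on FPKM as deposited. In 769-P cells 9 of the 77 (11.7%) were higher in every si-NUF2 library than in every si-NC library, against 16% of all genes, and 5 (6.5%) were lower, against 17.3%. The 9 included RPL6, RPL10A, RPL11, RPL12, RPL13, RPL19, RPS19 and RPS26, and the 5 were RPL7, RPL13A, RPL24, RPL27 and RPL35. In ACHN cells 10 (13.0%) were higher, against 7.86% of all genes, and 0 were lower, against 6.44%. The 10 included RPL12, RPL21, RPL26, RPLP1, RPLP2, RPS2, RPS12, RPS26 and RPSA, and RPL12 and RPS26 were apart in the same direction in both lines. For a single gene, an exact two-sided permutation test of 3 libraries against 3 gives these genes a p of 0.1, the smallest it allows.

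The lines, which share no library, were set side by side for the 77 genes. Over the 77, the log2 fold changes of 769-P and ACHN cells were correlated, with Pearson's r at 0.692 and Spearman's rho at 0.761. Genes are not independent replicates, and within a line all 77 values come from the same 6 libraries. The log2 fold change was above 0 in both lines for 45 genes, below 0 in both for 12 and of opposite sign for 20 (58.4%, 15.6% and 26.0%), against 35.8%, 34.6% and 29.6% of the 12930 genes tested in both lines. Opposite signs were thus about as common as among all genes, and the 77 differed in leaning above 0. The correlation over all genes is not given here. In 769-P cells 22 genes (28.6%) were higher in every pair and 13 (16.9%) lower, against 29.7% and 33.4% of all genes. Of the 77, 19 (24.7%) were higher in every pair of both lines, against 17% of all genes, among them RPLP0, RPL5, RPL12, RPL13, RPS2, RPS12, RPS26 and RPSA. RPL7, RPL31 and RPL35A (3.9%) were lower in every pair of both lines, against 17.9% of all genes.

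A test of the difference in response between the lines found none of the 77 past the threshold, and 0% of the 12938 genes tested. At an unadjusted p under 0.05 limma found 1 of the 77, RPL11, against 613 of all 12938 genes tested. The response of RPL11 was higher in 769-P cells by 0.37 on the log2 scale (SE 0.149). With the block, 3.28% of all genes passed and again none of the 77, where the lowest adjusted p was 0.0908 for RPL11. In ACHN cells RPL11 was at 341, 290.4 and 334 FPKM under si-NUF2 and 320, 301 and 263 FPKM under si-NC, with overlapping groups. The other genes with the largest differences were RPL26 (-0.23), RPS15A (-0.22), RPL21 (-0.20) and RPS3A (-0.18), all with a higher response in ACHN cells, and neither fit called them.

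RPLP0, RPLP1, RPLP2, RPS6 and RPL22 had small changes, whereas RPL11, RPSA and RPL13A, described above, moved further in 769-P cells. RPLP0, RPLP1 and RPLP2 form the stalk that recruits elongation factors, and moved by 0.08, 0.02 and 0.03 on the log2 scale in 769-P cells. Their values in ACHN cells were 0.14, 0.07 and 0.12. RPS6, the target of the S6 kinases, was at 0.03 in both lines, and RPL22, which has a paralog that can take its place, was at -0.10 and -0.03. None of RPLP0, RPLP1, RPLP2, RPS6 and RPL22 passed the threshold for si-NUF2 against si-NC in either line, with or without the block. RPLP0 did pass in ACHN cells when recovered reads were fitted by limma-voom with the block (adjusted p = 0.0332).

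Under si-NC the lines themselves differed in 43 of the 77 genes. At an adjusted p under 0.05, 23 were higher and 20 lower in 769-P than in ACHN cells, against 32.2% and 29.3% of all 15376 genes tested. The median of the 77 was 0.0412, beside 0.0368 for all genes. The lowest were RPL11 (-0.82), RPS25 (-0.74), RPSA (-0.72), RPL28 (-0.66) and RPS6 (-0.62). RPL11, for example, was at 180, 157 and 150.2 FPKM in 769-P si-NC libraries and at 320, 301 and 263 FPKM in ACHN si-NC libraries (SE 0.117, adjusted p = 0.000976), and the lines did not overlap. RPSA was at 163, 146 and 142 FPKM in 769-P and at 241, 259 and 260.1 FPKM in ACHN cells (SE 0.092, adjusted p = 0.000607).

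The highest in 769-P cells were RPL7 (1.35), RPS28 (1.35), RPL9 (1.11), RPL8 (1.05) and RPL17 (0.87). RPL7, of the large subunit, was at 665, 683 and 685 FPKM in 769-P si-NC libraries and at 300.5, 259 and 261 FPKM in ACHN si-NC libraries (SE 0.0967, adjusted p = 4.97e-05). The levels of the lines were 2.55-fold apart for RPL7, the largest difference among the 77. RPS28, of the small subunit, was at 177, 162 and 183 FPKM in 769-P cells and at 100, 61.8 and 55.8 FPKM in ACHN cells, so that ACHN replicate 1 stood above the other two. Without that library the log2 difference of RPS28 was 1.61.

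Line differences of the ribosomal protein genes were set beside those of other genes by position. The median of the ribosomal protein genes had the sign of the median of all genes on 19 of the 21 chromosomes that hold any. On chromosome 1 it was -0.394 over 5 ribosomal protein genes, against 0.095 over all genes, and on chromosome 22 RPL3 was at -0.272, against 0.196. In 3 regions chosen after the values were seen, holding 11 of the 77 genes, both medians had the same sign. On the first 60 Mb of chromosome 3, RPL15, RPL29, RPL32 and RPSA passed as lower in 769-P cells and RPL14 did not pass. The median of these 5 was -0.57, and the median of all 341 genes tested there was -0.486. Between 100 and 200 Mb of the same chromosome, RPL24 and RPL35A were both higher at a median of 0.642, with 0.374 for all 417 genes there. On chromosome 8 from 50 to 150 Mb, RPL7, RPL8, RPL30 and RPS20 were all higher with a median of 0.964, and all 356 genes had a median of 1.091. Over all genes tested the median was 0.037. The part of gene copy number was not tested.

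The spread between replicates of a group was small for these genes. The median SD of log2 FPKM over the 77 was 0.0595 in 769-P si-NUF2, 0.0774 in 769-P si-NC, 0.11 in ACHN si-NUF2 and 0.116 in ACHN si-NC libraries. Other genes in the same range of levels had medians of 0.0942, 0.0994, 0.182 and 0.192. In 769-P cells RPL7A, RPL7 and RPS16 had the smallest mean SD (0.0186, 0.0238 and 0.0273), and RPL36A, RPS10 and RPL28 the largest (0.268, 0.226 and 0.155), of which the first pair are also the genes with the fewest reads. In ACHN cells the smallest were those of RPLP1, RPL12 and RPL30 (0.021, 0.0284 and 0.0417).

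Among the largest spreads in ACHN cells were those of RPS28, RPS15 and RPL36 (mean SD 0.418, 0.401 and 0.395), and in all 3 genes it lay in the libraries of replicate 1. RPS15 was at 328, 209.8 and 204 FPKM with si-NUF2 and at 330, 203 and 198 FPKM with si-NC. RPL36 was at 189, 111 and 115 FPKM and at 165, 104 and 112 FPKM. Replicate 1 thus stood above replicates 2 and 3 by a like amount under both siRNAs. In 769-P cells RPS15 was at 275.5, 255 and 248 FPKM and at 278, 261 and 259 FPKM, a much smaller gap.

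RPS15, RPS28 and RPL36 lie on the first 20 Mb of chromosome 19, a region chosen after the values were seen. In ACHN replicate 1, their log2 level exceeded the mean of replicates 2 and 3 by 0.677, 0.671 and 0.752 under si-NUF2 and by 0.708, 0.759 and 0.606 under si-NC. All 419 genes tested in that region had medians of 0.48 and 0.53, while the other 477 genes of chromosome 19 had medians of -0.03 and -0.01. On chromosome 12 the direction was the opposite, with medians of -0.24 and -0.25 over all 896 genes tested and of -0.13 and -0.16 over RPL6, RPL41, RPLP0 and RPS26. Of 108 stretches of 20 Mb with at least 60 genes tested, 1 was higher and 5 were lower in ACHN replicate 1 by at least 0.15 under both siRNAs. The counts were 3 and 1 for ACHN replicate 2 and 2 and 2 for ACHN replicate 3, and of 96 such stretches in 769-P cells none passed, for any replicate number. So libraries of the same number in ACHN cells shared differences by position that the other libraries of their group lacked. What these differences come from was not tested.

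Replicate numbers also moved the 77 genes as a group. Replicate 1 was above its group mean for 68 and 56 of the 77 genes in 769-P (si-NUF2 and si-NC) and for 70 and 62 in ACHN cells, and replicate 2 was below it for 65, 72, 71 and 58. Over the 77 genes, deviations of same-numbered libraries of the 2 groups had a correlation of 0.893, 0.883 and 0.527 in ACHN cells, and of 0.458, -0.192 and 0.228 in 769-P cells.

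Other genes of translation were read from lists chosen with earlier results of these data known. Their counts stand beside shares of all genes tested of 5.26% higher and 4.71% lower in 769-P cells. The blocked fits called 13.6% of all genes higher and 13.9% lower in 769-P cells, and 7.14% higher and 5.05% lower in ACHN cells. Of the paralogs and fusion precursors, 8 of 10 were tested. RPL26L1, a close relative of RPL26, and RPL22L1, the paralog of RPL22, rose in 769-P cells by 1.06 (SE 0.186, adjusted p = 0.0198) and 0.40 (SE 0.0992, adjusted p = 0.0482). In ACHN cells they rose by 0.88 and 0.51 with the block (adjusted p = 0.0116 and 0.0133), where FAU, the precursor of a small subunit protein, rose by 0.26 (adjusted p = 0.0235), and none of the 8 passed without it. RPL26L1 was at means of 58.4 and 28.02 FPKM in 769-P cells, while RPL26 itself was at -0.02.

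Of 15 elongation factors and other TOP mRNAs tested, 1 (6.67%) rose and 0 fell in 769-P cells, against 5.26% of all genes higher, and 7 (46.7%) rose with the block, against 13.6%. In ACHN cells 2 (13.3%) rose with the block, against 7.14%. EIF3F, a subunit of the initiation factor that binds the small subunit, rose by 0.88 (SE 0.107, adjusted p = 0.00784) in 769-P and by 0.61 with the block in ACHN cells (adjusted p = 0.0129). With the block, NAP1L1 also rose in both lines, by 0.35 and 0.25 (adjusted p = 0.00823 and 0.0314). The median of this list was 0.143 in 769-P and 0.111 in ACHN cells, against 0.0231 and 0.0636 for the 77 ribosomal protein genes. EEF1G was listed at 0 in all 12 libraries.

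Genes of ribosome biogenesis and of RNA polymerase I had medians of 0.01 and 0.0023 in 769-P and of 0.126 and 0.1195 in ACHN cells. Of 25 biogenesis genes, 1 rose and none fell in 769-P cells (4 rose and 2 fell with the block, 24% against 27.5% of all genes), and in ACHN cells 6 rose with the block (24%, against 7.14%) and none without it. SBDS, which releases a factor that keeps the subunits apart, rose by 0.56 in 769-P (SE 0.113, adjusted p = 0.0286) and by 0.44 with the block in ACHN cells (adjusted p = 0.0169). Of 13 genes of RNA polymerase I and its factors, RRN3, which brings the polymerase to ribosomal DNA, fell by 0.37 in 769-P cells (SE 0.0891, adjusted p = 0.0456), and UBTF rose by 0.26 with the block in ACHN cells (adjusted p = 0.0279). With the block, 2 of the 13 rose and 2 fell in 769-P cells (30.8%, against 27.5% of all genes).

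Of 10 regulators of TOP mRNAs and S6 signalling, RPS6KB1, which encodes the kinase of RPS6, fell by 0.41 in 769-P cells (SE 0.0859, adjusted p = 0.0323) and with the block by 0.27 in ACHN cells (adjusted p = 0.043). EIF4EBP2, an inhibitor of cap-dependent translation, fell with the block in both lines, by 0.37 and 0.29 (adjusted p = 0.00844 and 0.0413), and EIF4EBP1 fell by 0.20 with the block in 769-P cells (adjusted p = 0.0172). LARP1 and MTOR did not pass in either line.

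Genes whose symbols name them as mitochondrial ribosomal proteins were also listed. They were chosen by symbol alone, not by a known place in that particle. Of 77 tested, 2 rose and 5 fell in 769-P cells (9.09% called, against 9.98% of all genes), and 6 and 14 with the block (26% against 27.5%). In ACHN cells 4 rose and 2 fell with the block (7.79% against 12.2%). The median was -0.0767 in 769-P and 0.0209 in ACHN cells. MRPS34 was at 0.67 and 0.71 and MRPL36 at 0.38 and 0.35 in the 2 lines. MRPL34 was at -0.45 and -0.23, and MRPL48 at -0.34 and -0.43. MRPS34, MRPL36, MRPL34 and MRPL48 passed with the block in both lines, and MRPS34, MRPL36 and MRPL34 passed without it in 769-P cells. MRPS35 (-0.47 and -0.06) and MRPS36 (-0.47 and -0.25) passed with and without the block in 769-P cells. Neither passed in ACHN cells. Under si-NC, 57 of the 77 were higher in 769-P than in ACHN cells and 4 lower, with a median of 0.814, against 23 and 20 of the cytosolic genes.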

How the data were processed

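RNA was taken from 769-P and ACHN cells after 48 h with si-NUF2 or si-NC, 3 libraries per group. The authors deposited FPKM, 1 value per gene and library; the submitters' processing notes name HISAT2 2.0.5, featureCounts 1.5.0-p3 and hg38, and the strand setting is not given in the sources used here. With exon lengths of GENCODE 29, about 97% of FPKM worth fewer than 50 reads were whole reads within 0.02, which gave the depth; precision is limited by the spread between 3 libraries, and by counting error for RPS10.

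The 77 genes and all lists were chosen with earlier results of these data known. FPKM were scaled within each comparison by a trimmed mean of log ratios (30% of ratios and 5% of levels trimmed), and genes with at least 0.5 FPKM in at least 3 libraries were kept. Pairs of libraries and groups that did not overlap were counted on FPKM as deposited, without this scaling. limma 3.58.1 in R 4.3.3 (lmFit, then eBayes with a trend) was fitted to log2(FPKM + 0.1) over all genes, with Benjamini-Hochberg adjustment and a threshold of 0.05. Fold changes are on this scale and understate changes of low genes. Each line was fitted alone, the difference in response was the interaction over 12 libraries, and the lines were compared under si-NC. Scripts were tested on simulated data.

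The replicate numbers come from the sample titles. Deviations of same-numbered si-NUF2 and si-NC libraries from their group means had correlations over all genes of 0.359, 0.271 and 0.19 (769-P) and of 0.648, 0.735 and 0.46 (ACHN), each over 0.1, so the numbers were taken to pair the libraries and fits with the replicate number as a block are given beside the others. No library was a copy of another of its group (chi-square per gene at least 16.6).

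Named genes were, per comparison, the 5 highest and 5 lowest past the threshold (of all if none passed), the 4 highest and 4 lowest in mean FPKM, the 3 with the largest and smallest SD per line, RPLP0, RPLP1, RPLP2, RPSA, RPS6, RPL5, RPL11 and RPL22 by role, NUF2, and up to 4 per list by size. Genes named because their groups did not overlap, because of their position or as opposite between the lines were chosen after their values were seen. MRPL36 and MRPL48, which passed with the block in both lines, were named outside these rules. Other settings tried were scaling by median ratios or upper quartiles, FPKM as deposited, scaling without the 77 genes, no filter or at least 1 FPKM in every library, pseudocounts of 1 and 0.01, the block, 1 fit of 12 libraries, a threshold of 0.01 and each library left out. Having seen the data, limma-voom on recovered reads and the block without a replicate number were added.

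A few members and 1 listed marker are not reported here by name or in the figures; they stay in every fit and count.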

Additional observations from a re-analysis of the deposited data

Results flagged for a closer look

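Every si-NUF2 library of 1 line moved one way against the si-NC library of its number and every library of the other line moved the opposite way for 2 of the 77 genes, and for 5 genes of the lists. RPL7A was lower in 3 of 3 pairs of 769-P and higher in 3 of 3 pairs of ACHN cells, with a difference in response of -0.0514, and RPS15A likewise with -0.2223. The share of all genes with such opposite pairs is not given here, so these counts have no background beside them. Pairs were compared on FPKM as deposited. There the first 769-P pair of RPL7A differed by only -0.0021 on the log2 scale, so its sign depends on the scaling. Neither passed the test of the difference, where adjusted p-values with the block were 0.511 and 0.101. RPS27L, a paralog of RPS27, was higher in 769-P and lower in ACHN cells, with a difference of 0.4393 (adjusted p = 0.0238 with the block and 0.933 without it). MRTO4, a factor of large subunit assembly, had a difference of -0.366 (adjusted p = 0.0419 with the block and 0.9996 without it). EEF1B2 (-0.0824), RRS1 (-0.4481) and TWISTNB (-0.2472) did not pass in either fit.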

How the results depend on the processing

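In 769-P cells, where 1 of the 77 genes was called, the count was 2 with median-ratio scaling, with upper-quartile scaling, with FPKM as deposited, with at least 1 FPKM in every library and with limma-voom on the recovered reads, and 0 with no filter and at an adjusted p under 0.01. It was 8 with the replicate block, 14 with limma-voom and the replicate block, and 2, 1 and 9 with the replicate block without replicate 1, without replicate 2 and without replicate 3. Leaving out 1 library gave 0 to 2 of the 77, while 357 to 1144 of all genes were called. For the other settings, apart from the replicate block itself, counts over all genes are not given here. Shifts in these counts are thus not particular to the 77. In ACHN cells the count of 0 became 2 with the replicate block and 11 with limma-voom and the replicate block. The cause of these shifts was not tested. When 1 library was left out, the count was 0 for the 77 and also 0 over all genes. Those fits therefore say nothing about the 77 in particular. Over all genes, 745 rose and 667 fell in 769-P cells, and 1931 and 1967 with the replicate block, while ACHN cells went from 0 to 1079 and 764. The block called none of the 77 for the difference between the lines. The lines differed in 36 to 47 of the 77 when 1 library was left out, 47 of them without ACHN si-NC replicate 1. Over all genes the count ran from 7287 to 8128 in these fits. The median of the 77 in 769-P cells turned to -0.007 without si-NUF2 replicate 1 and to -0.0161 without si-NC replicate 2. With mitochondrially encoded genes left out of the sum, the shares of the 77 became 8.57% and 8.51% (769-P) and 8.73% and 8.42% (ACHN) for si-NUF2 and si-NC. No called value of a named gene changed sign under these settings. Counting error is largest for RPS10, RPL36A and RPL17.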
